A study of Caenorhabditis elegans with 12 samples.

Results

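The sites described here are places in the central part of the *C. elegans* autosomes where only 1 of 6 mapped proteins had a called peak. The absence of a peak from a list does not show that the protein was not bound there. Peaks of all 6 proteins were pooled, and peaks that shared at least 1 bp were merged into 5870 intervals. An interval was kept if it held peaks of exactly 1 protein, was not on X, and had its midpoint in the middle 50% of its chromosome, where the largest peak end over the 6 lists stood for the chromosome length. The sites were thus chosen by measured peak positions, on overlap and on place along the chromosome. This left 2108 intervals, 35.9% of the total, and each of them held a single peak. Binding was mapped by ChIP-seq, which sequences the DNA that an antibody to the protein pulls down. All 12 samples came from whole N2 animals, the wild-type strain, at the third larval stage (L3), grown in liquid culture at one temperature, with no treatment and no mutant. Each protein (ZFP-1, SIN-3, BLMP-1, SCC-1, TOP-2 or JMJD-2) was immunoprecipitated in 2 replicates, and the authors combined the replicates into 1 peak list per protein. Whole animals mix all cell types, so 2 proteins at a shared interval need not have been bound in the same cells, and the cells behind a one-protein site are unknown.

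The 5 autosomes of this worm have a gene-dense central region, where recombination is rare and housekeeping genes are common, and 2 arms richer in repeats and in H3K9 methylation. BLMP-1 is a zinc finger transcription factor related to mammalian BLIMP, with roles in hypodermal and gonadal development. ZFP-1, related to mammalian AF10, is a chromatin protein with PHD fingers found at promoters of active genes. SIN-3 is the scaffold of a histone deacetylase complex, and JMJD-2 removes methyl groups from histone H3. SCC-1 is the subunit that closes the cohesin ring, which holds sister chromatids together and forms chromatin loops. TOP-2 passes one DNA double strand through another and so releases supercoils and tangles.

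The lists give positions only, in ce10, with no height, read count or P-value. No error between replicates could therefore be computed, and the depth behind a peak is unknown. Shares are given with exact Clopper-Pearson 95% intervals and medians with exact binomial 95% intervals. These cover counting error over sites only. They take sites as independent, although neighboring sites formed pairs and groups, so intervals on spacing are likely too narrow. Which sites stand alone also depends on which 6 proteins were mapped. By the authors' methods, BLMP-1 peaks were called with another peak caller than those of the other proteins. Differences between BLMP-1 and the other proteins in number of sites, overlap or spacing cannot be told apart from the peak caller.

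ZFP-1, the longest list, supplied 877 of the one-protein sites in centers, 41.6% of them (interval 39.5% to 43.7%). SIN-3 supplied 441 (20.9%), BLMP-1 332 (15.7%), SCC-1 209 (9.91%), TOP-2 128 (6.07%) and JMJD-2 121 (5.74%). The order differs from that of the lists themselves, in which JMJD-2 had 816 peaks and TOP-2 464. The difference lies in how often each protein was alone. In the centers TOP-2 was alone at 84.8% of its 151 intervals (interval 78.0% to 90.1%), ZFP-1 at 73.8% of 1188 and BLMP-1 at 67.5% of 492. SIN-3 was alone at 54.5% of 809, SCC-1 at 39.7% of 527, and JMJD-2 at 33.5% of 361 (interval 28.7% to 38.6%). The demethylase and the cohesin subunit thus shared most of their central intervals with another of the 6 proteins, and the topoisomerase shared few.

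On the arms the order of the proteins was the same, with TOP-2 alone at 87.2% of its intervals and JMJD-2 at 43.0%. SIN-3 was alone at 61.9% of its arm intervals (interval 58.4% to 65.4%), and this interval did not overlap that of the centers (51.0% to 58.0%). For SCC-1 the share was 47.5% on arms and for BLMP-1 63.3%, with intervals that overlapped those of the centers. Because position and overlap were used to choose the sites, these shares are descriptions and were not tested.

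One-protein sites were densest in the center of Chr I and sparsest in that of Chr V. The 5 centers together spanned 41.3 Mb and held 51.1 one-protein sites per Mb. The density was 64.9 per Mb on I, 61.1 on III, 49.5 on II, 47.1 on IV and 39.1 on V. Chr V has the longest center (10.5 Mb) and held 409 sites, compared with 489 in the 7.54 Mb of I. For ZFP-1 the density ran from 14.6 sites per Mb on V to 28.5 on I. For JMJD-2 it ran from 1.63 on V to 5.04 on I, the widest range of the 6 proteins (3.10-fold). SIN-3 ranged from 7.65 on V to 14.4 on III, and SCC-1 from 4.02 on V to 6.82 on III. V was thus the lowest autosome for these 4 proteins, but not for BLMP-1 or TOP-2.

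**Figure D1:**
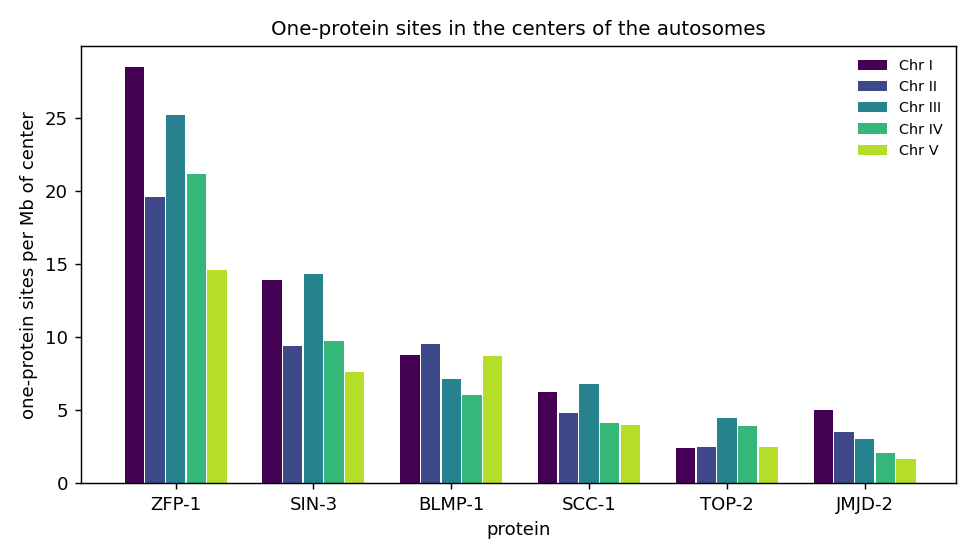
One-protein sites per Mb of center (vertical axis) for each protein (horizontal axis) and autosome (colored bars). The ZFP-1 bars run from 14.6 on V to 28.5 on I, and the BLMP-1 bar on V (8.71) is about as high as that on I (8.76).

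The share of each protein among the sites was compared between autosomes, and only that of BLMP-1 on V passed the test. BLMP-1 made up 91 of the 409 sites on V (22.2%) and 14.2% of those on the other 4 autosomes. In a two-sided Fisher's exact test, adjusted by Benjamini-Hochberg over 30 combinations of 6 proteins and 5 autosomes, the odds ratio was 1.73 with an adjusted p of 0.00323. This was the only test of the 30 that passed the threshold of 0.05, 3.33% of those made. Before adjustment 6 had a p under 0.05, and the next lowest adjusted p was 0.125 (Fisher's exact test), for BLMP-1 on III (11.6% of sites against 16.8% elsewhere) and TOP-2 on I (3.68% against 6.79%). With the center narrowed to the middle 33.3% of each chromosome, BLMP-1 on V no longer passed Fisher's exact test (adjusted p = 0.0925, with an odds ratio of 1.69).

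The share on V is relative to the other proteins. BLMP-1 had 27.4% of its sites on V, which has 25.3% of the length of the centers. This did not pass an exact binomial test over the same 30 combinations (adjusted p = 0.436). BLMP-1 was furthest below length on IV, with 16.0% of its sites against 21.2% of length (adjusted p = 0.0624, exact binomial test). Its densities were 8.76 per Mb on I, 9.56 on II, 7.11 on III, 6.07 on IV and 8.71 on V. Against length, 7 of the 30 combinations passed the exact binomial test, and none of them was of BLMP-1. On V, ZFP-1 had 17.4% of its sites (adjusted p = 7.76e-07, exact binomial test), SIN-3 18.1% (adjusted p = 0.00365) and JMJD-2 14.0% (adjusted p = 0.0158). On I, with 18.3% of the length, ZFP-1 had 24.5% of its sites (adjusted p = 6.28e-05, exact binomial test), JMJD-2 31.4% (adjusted p = 0.00408) and SIN-3 23.8% (adjusted p = 0.0158). SIN-3 on III (22.4%, adjusted p = 0.0104, exact binomial test) was the seventh. Both tests take sites as independent units, although 21.4% of BLMP-1 and 16.1% of ZFP-1 sites lay in the groups described below. Their p-values are therefore likely too small. The distribution of genes and accessible chromatin along the autosomes was not analysed here.

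One-protein sites of BLMP-1 and ZFP-1 were more frequent in centers than on arms, whereas those of TOP-2 were less frequent there, and all intervals with the protein, shared ones included, gave nearly the same shares. Of the 513 one-protein BLMP-1 sites on autosomes, 64.7% lay in centers (interval 60.4% to 68.9%), which make up 50% of the length by definition. For ZFP-1 it was 59.0% of 1487 (interval 56.4% to 61.5%), and for TOP-2 42.8% of 299 (interval 37.1% to 48.6%). SIN-3 (48.3%), JMJD-2 (47.8%) and SCC-1 (47.2%) had intervals that included 50%. Over all autosomal intervals with the protein, the share in centers was 63.2% for BLMP-1, 59.4% for ZFP-1, 43.5% for TOP-2, 54.0% for JMJD-2, 51.7% for SCC-1 and 51.5% for SIN-3, so the pattern of BLMP-1, ZFP-1 and TOP-2 is not particular to one-protein sites. All 6 proteins together had 53.9% of their 3908 one-protein autosomal sites in centers. The center was used to choose the sites, so these shares carry no test.

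The autosomes differed within a protein. BLMP-1 was above 50% on each of the 5 autosomes, from 53.8% on III to 75.8% on V (91 of 120 sites, interval 67.2% to 83.2%). ZFP-1 was above 50% on each as well, from 54.9% on II to 66.0% on I. SCC-1 was lowest on IV, where 36 of 115 sites (31.3%, interval 23.0% to 40.6%) lay in the center, against 44.8% to 58.0% on the other 4 autosomes. TOP-2 ranged from 32.1% on I to 52.3% on IV.

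**Figure D2:**
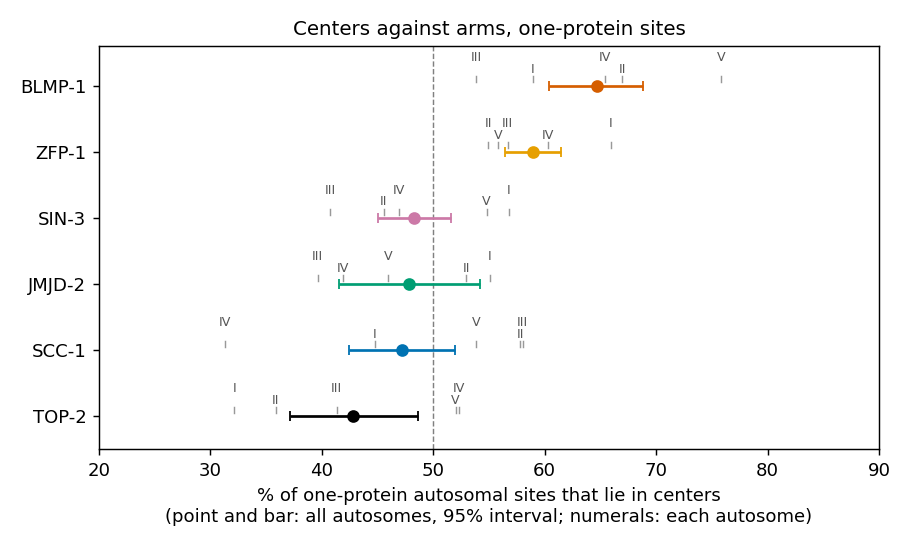
Share of the one-protein autosomal sites of each protein that lie in centers (horizontal axis, percent), as a point with its 95% interval over all autosomes, and as roman numerals for each autosome; the dashed line marks 50%. BLMP-1 (64.7%) and ZFP-1 (59.0%) lie above the line on each autosome, and the SCC-1 value on IV (31.3%) lies apart from the others.

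Within the centers, BLMP-1 and TOP-2 sites were most frequent in the middle. When each center was divided into 5 equal parts, the third part held 88 of the 332 BLMP-1 sites, and the other parts held 55 to 66. For TOP-2 the third part held 37 of 128 sites, and the first held 15. JMJD-2 followed a similar course, with 32 of 121 sites in the third part and 16 in the first. ZFP-1 was nearly even, with 165 to 183 sites in each part, as was SIN-3, with 82 to 95.

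**Figure D3:**
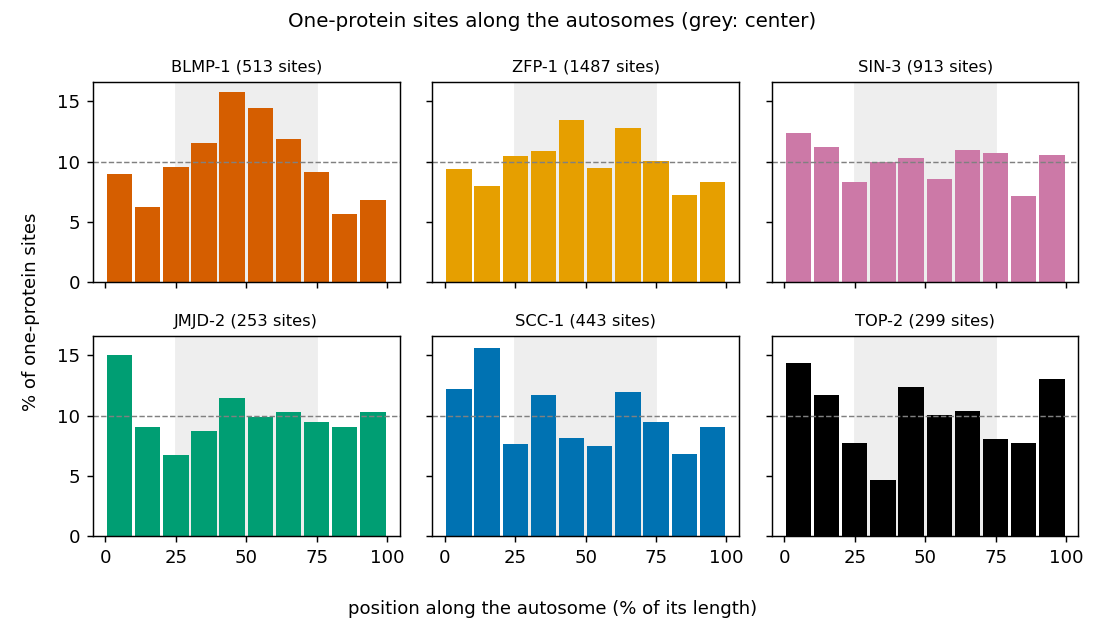
Share of the one-protein sites of each protein (vertical axis, percent) in 10 equal bins of the length of the autosomes (horizontal axis, percent of length), all autosomes together; grey marks the center and the dashed line an even spread. BLMP-1 has its highest bars in the middle of the center, and TOP-2, SCC-1, SIN-3 and JMJD-2 have theirs near the left end.

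The distance from each site to the next interval with the same protein was then measured between midpoints, whether that interval was a one-protein site, was shared, or lay outside the center. The median was 7.36 kb for ZFP-1 (interval 5.90 to 9.16 kb), 14.9 kb for BLMP-1, 15.9 kb for SIN-3, 17.4 kb for SCC-1, 25.6 kb for JMJD-2 and 43.5 kb for TOP-2 (interval 4.44 to 76.7 kb). Longer lists have closer sites by number alone. The medians followed the number of central intervals with each protein, except that BLMP-1, with fewer than SIN-3 and SCC-1, had a median no longer than theirs. At short range TOP-2 did not follow it. With 1 one-protein site per 322 kb of center, it had a further TOP-2 site within 2 kb at 45 of 128 sites (35.2%, interval 26.9% to 44.1%). SIN-3, with 1 site per 93.5 kb, had one at 45 of 441 (10.2%, interval 7.54% to 13.4%). The share was 23.8% for BLMP-1, 23.4% for SCC-1, 22.0% for ZFP-1 and 12.4% for JMJD-2. With peaks less than 500 bp apart merged, the TOP-2 share was 19.6% (interval 12.4% to 28.6%), which overlapped that of ZFP-1 (17.0%, interval 14.5% to 19.9%), and the TOP-2 median was 87.0 kb. The limit of 2 kb was set after the distances had been seen, and no test was made.

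The TOP-2 share was above that of SIN-3 on each of the 5 autosomes and was the highest of the 6 proteins on 3. It was 48.4% on III (15 of 31 sites), 41.2% on IV, 38.9% on I, 21.1% on II and 19.2% on V. Without III it was 30.9%. The median distance to the next TOP-2 site did not follow this order. It was shortest on III (2.17 kb) and longest on I (162 kb), the autosome with the third highest share within 2 kb. Between 5 and 20 kb there were 4 TOP-2 sites, whereas 50 had their nearest TOP-2 neighbor more than 100 kb away.

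Many of the close TOP-2 sites lay at a narrow range of distances. At 26 sites (20.3%, interval 13.7% to 28.3%) the next TOP-2 site was between 500 and 750 bp away, and these 26 distances ran from 593.5 to 740.5 bp, with a median of 672 bp. None lay between 750 and 1000 bp. The 26 sites formed 15 pairs of neighbors on all 5 autosomes, and each partner was a one-protein site too. Examples are 7720241 to 7721845 on I, where 3 sites followed at 680 and 672.5 bp, and 8664316 to 8665882 on IV, with 3 sites at 698.5 and 639 bp. In the same class of distance the other proteins had 1.91% (SCC-1) to 3.31% (BLMP-1) of their sites. On the arms, which the rule left out, TOP-2 had 27 of 171 sites in this class (15.8%, interval 10.7% to 22.1%) with a median of 682.5 bp. SIN-3 had 29 of its 472 arm sites there (6.14%, interval 4.15% to 8.70%), on all 5 autosomes and with a median of 639 bp. On X TOP-2 had 8 of 96 (8.33%, interval 3.67% to 15.8%) with a median of 681.5 bp. The class was singled out after the distances had been seen. Many of these distances count at both sites of a pair, so the intervals are likely too narrow. The TOP-2 peaks in centers had a median width of 233.5 bp, so that sites at this spacing are separated by sequence outside any TOP-2 peak. Between edges the 15 pairs were 368 to 535 bp apart, 13 of them less than 500 bp, so that merging peaks less than 500 bp apart joins these 13 pairs.

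**Figure D4:**
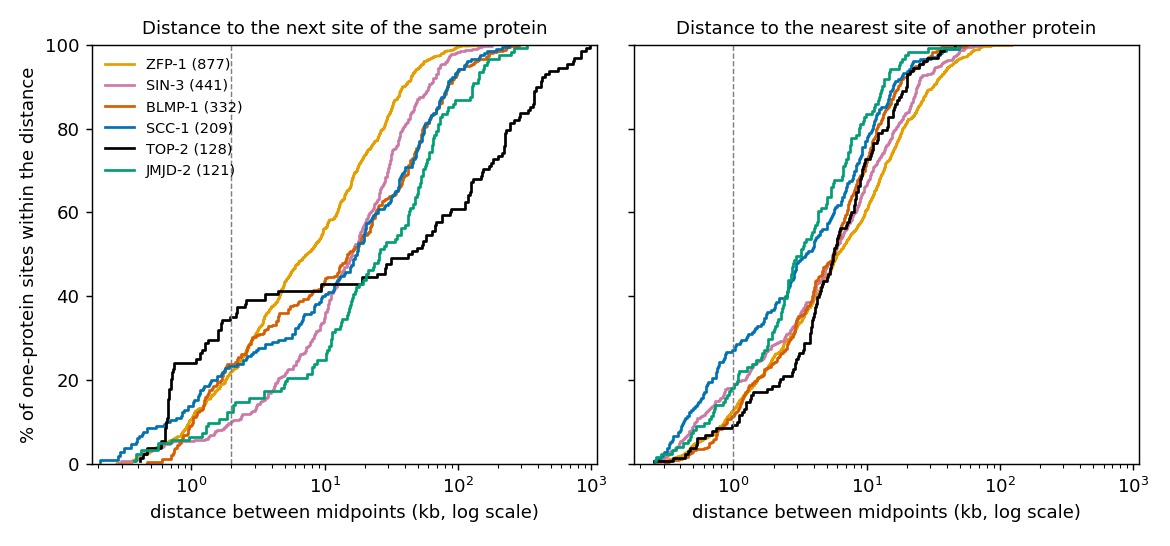
Cumulative share of the one-protein sites in centers (vertical axis, percent) by distance between midpoints (horizontal axes, kb, log scale) to the next site of the same protein (left) and to the nearest interval with another protein (right). The TOP-2 line climbs steeply between 593.5 and 740.5 bp on the left, and on the right the SCC-1 line is the highest at 1 kb (27.3%).

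SIN-3 sites had a SIN-3 neighbor within 2 kb less often in centers than on arms, and BLMP-1 sites had one of BLMP-1 more often. BLMP-1 also had more intervals in centers (492) than on arms (286), and more intervals lie closer by number alone. For SIN-3 the numbers were 809 and 762. The part played by these numbers was not tested. In centers 10.2% of one-protein SIN-3 sites had a further SIN-3 site within 2 kb, compared with 27.5% of the 472 on arms (interval 23.6% to 31.8%). The center was lower on 5 of 5 autosomes, by little on IV (18.8% against 19.8%) and most on III (6.06% against 37.5%). For BLMP-1 the share was 23.8% in centers and 12.2% on arms (interval 7.78% to 17.8%). Here the center was higher on 5 of 5 autosomes, but on III by less than 1 percentage point (24.5% against 23.8%). For ZFP-1, SCC-1 and JMJD-2 the shares were 22.0% and 24.4%, 23.4% and 25.2%, and 12.4% and 12.1%, with overlapping intervals. For TOP-2 they were 35.2% in centers and 25.7% on arms (interval 19.4% to 33.0%), also overlapping, and the center was higher on 3 of 5 autosomes. On arms the TOP-2 share was thus not above that of SIN-3, as it was in centers. With the center narrowed to the middle 33.3%, the SIN-3 share in centers was 6.69%. With peaks less than 500 bp apart merged, the SIN-3 shares were 4.88% and 14.9%, and those of BLMP-1 were 13.6% and 7.98% with overlapping intervals.

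Groups of neighboring sites less than 2 kb apart were formed from one-protein sites alone. TOP-2 had 17 groups with 44 sites, 34.4% of its sites, and 7 of the groups had 3 or more. The largest, with 5 TOP-2 sites, lay on III from 9409940 to 9412730 (ce10), and the next, with 4, on II from 6997161 to 7000516. BLMP-1 had 30 groups with 71 sites (21.4%), among them 5 sites on V from 6349557 to 6354702. ZFP-1 had 61 groups with 141 sites (16.1%), the largest with 7 sites on II from 3956244 to 3961540. SCC-1 had 14 groups with 30 sites, and JMJD-2 had 5 with 11. All 15 SIN-3 groups were of 2 sites.

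The shortest median distances to other proteins were those of JMJD-2 and SCC-1. The rule sets a lower limit on this distance, since overlapping peaks were excluded. The median distance to the nearest interval with another protein was 3.20 kb for JMJD-2 (interval 2.53 to 4.31 kb) and 3.53 kb for SCC-1 (2.64 to 5.08 kb). It was 5.57 kb for SIN-3, 5.64 kb for TOP-2, 5.69 kb for BLMP-1 and 6.06 kb for ZFP-1. The interval of SCC-1 overlapped those of SIN-3, TOP-2 and BLMP-1. With peaks less than 500 bp apart merged, the SCC-1 median was 6.38 kb, above those of TOP-2 (6.26 kb) and BLMP-1 (6.31 kb), and JMJD-2 had the shortest (4.14 kb). Another protein was closer than the next site of the same protein at 78.5% of JMJD-2, 68.4% of SCC-1, 66.2% of SIN-3, 63.3% of BLMP-1 and 60.9% of TOP-2 sites, and at 48.1% of ZFP-1 sites (interval 44.8% to 51.5%). These medians and shares depend on how many intervals each protein had. ZFP-1 was in 1188 of the 2706 central intervals, and TOP-2 was in 151. How far this set the order was not tested. At 202 of the 877 ZFP-1 sites the nearest interval with another protein held ZFP-1 too, so the other protein could not be closer there. The same held at 49 of 209 SCC-1, 88 of 441 SIN-3, 37 of 332 BLMP-1, 15 of 121 JMJD-2 and 3 of 128 TOP-2 sites.

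At 21.1% of SCC-1 sites the nearest interval with another protein lay within 1 kb and held SIN-3. Such an interval could be shared and hold SCC-1 too, and SIN-3 was in 809 of all 2706 central intervals. Within 1 kb of 57 of the 209 SCC-1 sites (27.3%, interval 21.4% to 33.8%) was an interval with another protein, and at 44 of these 57 it held SIN-3. JMJD-2 and ZFP-1 were each there at 15 of the 57, and TOP-2 at 0, which allows a share of up to 6.27% by the exact interval. For TOP-2 sites the share with another protein within 1 kb was 9.38% (12 of 128), for BLMP-1 11.4%, for ZFP-1 12.9%, for JMJD-2 18.2% and for SIN-3 18.4%. SCC-1 had the highest share on 4 of the 5 autosomes. The neighbor of BLMP-1 within 1 kb held ZFP-1 at 30 of 38 sites, and ZFP-1 was in 1188 of the 2706 central intervals. On the arms 15.8% of one-protein SCC-1 sites had another protein within 1 kb (interval 11.4% to 21.1%), and this interval ended just below that of the centers. Within 2 kb the SCC-1 shares were 36.8% in centers (interval 30.3% to 43.8%) and 34.2% on arms (interval 28.1% to 40.7%), with overlapping intervals.

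Some sites stand alone by a few bases. Of the 2108 sites, 41 were less than 100 bp from a peak of another protein, and the smallest gap was 4 bp, between JMJD-2 at 9440779 to 9441043 and BLMP-1 at 9441048 to 9441687 on IV (ce10). A SCC-1 site on V (13625655 to 13625910) lay 14 bp from a SIN-3 peak, and a TOP-2 site on IV (7845833 to 7846063) 8 bp from a ZFP-1 site. Just outside the rule, the smallest overlap of a shared central interval was 22 bp, for SCC-1 and SIN-3 on IV (4897830 to 4898241), and 23 of the 598 shared intervals overlapped by less than 100 bp. At the edge of the centers, the nearest site inside was 2.38 kb from the limit (SIN-3, IV) and the nearest outside 8.46 kb (ZFP-1, II).

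The order of bound intervals along the centers showed the same runs of 1 protein. Each site was followed to the next interval to its right, which could be a one-protein site of any protein or a shared interval. After a TOP-2 site the next interval was a TOP-2 site at 25% of 128 sites (interval 17.8% to 33.4%), whereas TOP-2 sites made up 4.73% of the 2706 intervals in centers. With peaks less than 500 bp apart merged it was 14.7%, and the same share for JMJD-2 after JMJD-2 was 5.88%. After a BLMP-1 site it was BLMP-1 at 22.7% (interval 18.3% to 27.6%; 12.3% of intervals), after SCC-1 it was SCC-1 at 13.9% (9.49% to 19.3%; 7.72%), and after JMJD-2 it was JMJD-2 at 10.0% (5.27% to 16.8%; 4.47%). For SIN-3 (18.0%, interval 14.5% to 21.9%; 16.3% of intervals) the interval included the share among all intervals. For ZFP-1 the share was 37.2% (interval 34.0% to 40.5%), and ZFP-1 sites were 32.4% of intervals. Shared intervals, 22.1% of the total, came next after 13.3% of TOP-2 sites and after 20.0% to 24.4% of the sites of the other proteins. The base share is that over all 5 centers, and the uneven density along the centers was not accounted for.

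**Figure D5:**
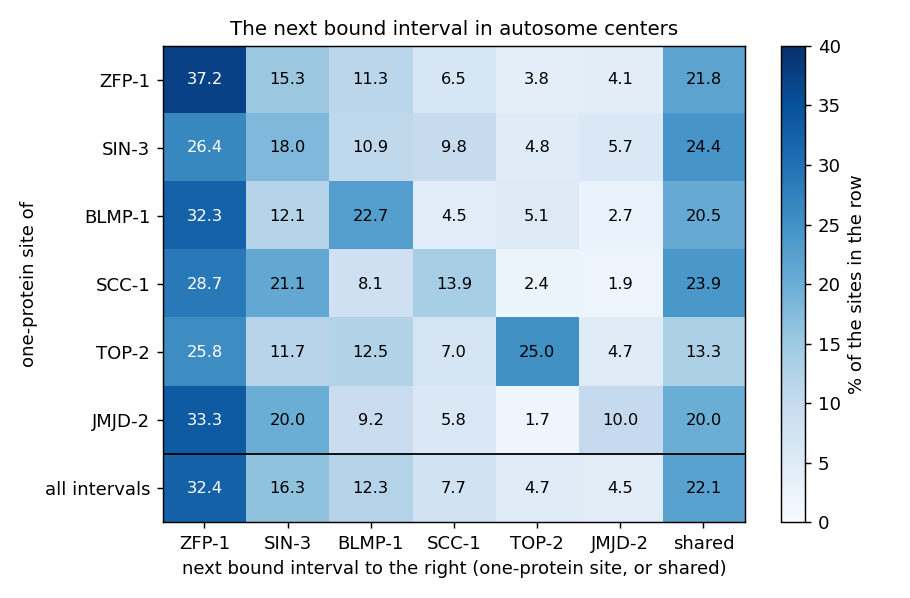
For the one-protein sites of each protein (rows), the share followed by each kind of interval (columns, percent of the row); the bottom row gives the share of each kind among the 2706 intervals in centers. The TOP-2 cell on the diagonal (25%) stands against 4.7% in the bottom row, and that of SIN-3 (18.0%) against 16.3%.

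The longest runs in which one-protein sites of the same protein followed each other were of 8 for ZFP-1, on II from 3956244 to 4002462 and on V from 12065384 to 12288044 (ce10). BLMP-1 had a run of 6 on V from 6347054 to 6354702. SCC-1 had 5 on V from 7917289 to 7924025, TOP-2 had 5 in the group on III named above, and SIN-3 had 5 on IV from 5394714 to 5486548. The SIN-3 run spanned 91835 bp and the TOP-2 run 2791 bp, so runs of the same length differed widely in extent. JMJD-2 had 3 runs of 3.

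The 200-kb windows with the most sites were found for each protein, with the first along the genome taken where tied. Those of BLMP-1 and SCC-1 were both on V. ZFP-1 had 15 sites on II from 3850001 to 4050000, compared with a mean of 4.25 per 200 kb over the 5 centers, and the means below are over the same length. BLMP-1 had 11 on V from 6200001 to 6400000 (mean 1.61), and SIN-3 had 9 on III from 4850001 to 5050000 (mean 2.14). SCC-1 had 7 on V from 7850001 to 8050000 (mean 1.01), TOP-2 had 5 on II from 6850001 to 7050000 (mean 0.621), and JMJD-2 had 4 on I from 6900001 to 7100000 (mean 0.587). The group of 5 TOP-2 sites on III named above also lay within 200 kb, so the TOP-2 window on II was tied. All these windows were picked as the highest and exceed the mean by construction.

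The longest stretches of center without a one-protein site of a given protein were on V for 4 of the proteins. For JMJD-2 the stretch was 2661 kb (6427701 to 9089125), which held 91 one-protein sites of other proteins and 9 shared intervals with JMJD-2. For SCC-1 the stretch was 1620 kb (11029619 to 12649673), also with 9 shared intervals that held SCC-1. For BLMP-1 it was 1143 kb (6745108 to 7888027), and for ZFP-1 it was 417 kb. The longest TOP-2 stretch, 1433 kb on IV (9118757 to 10552176), held 56 one-protein sites of other proteins and 0 shared intervals with TOP-2.

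Peaks at one-protein sites were about as wide as peaks of the same protein at shared intervals. The median width at one-protein sites was 252 bp for ZFP-1, 246 bp for JMJD-2, 235 bp for SIN-3, 233.5 bp for TOP-2 and 233 bp for SCC-1. In shared central intervals the medians were 248, 243, 236, 237 and 236 bp in the same order. BLMP-1, called with another peak caller, had medians of 333.5 bp alone and 360.5 bp in shared intervals, with overlapping 95% intervals (318 to 351 bp and 336 to 386 bp). Of the BLMP-1 sites, 16 were wider than 1 kb, and the other proteins had 0 sites of that width. The widest ran from 8288334 to 8292751 on II (4418 bp). The widest site of another protein was a ZFP-1 site of 458 bp on I (9470966 to 9471423). Differences in width between BLMP-1 and the other proteins, like those in spacing, cannot be told apart from the peak caller.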

How the data were processed

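Reads were aligned to ce10 by the authors. Their methods give YAPC as the peak caller, run per replicate, and MACS2 for the BLMP-1 data, with IDR to combine replicates, whereas BWA and MACS2 appear in the submitters' processing notes for every sample. Tool versions: not given in the sources used here. The 6 deposited lists (12 samples) give peak positions in base pairs, without score or read depth.

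Peaks were merged, assigned to centers and measured in Python 3.11.15 with numpy 2.4.6, scipy 1.17.1 and matplotlib 3.10.9, and the procedures were tested on simulated data. Samples were grouped by the protein named in their titles. Protein shares were compared between autosomes with Fisher's exact test, two-sided, and, as an alternative, each protein's sites with center length by a two-sided exact binomial test, both with Benjamini-Hochberg adjustment and with sites as units. All other values are descriptions, since 1 combined list per protein leaves no replicates. Coordinates count from 1. Sites named in the text are, for each protein, the widest site, the 200-kb window with most sites in steps of 50 kb, the longest run, the longest stretch without a site and the closest peak of another protein; TOP-2 neighbors and groups within 2 kb were chosen after their values were seen. The sites and comparisons were chosen with earlier results of these data known. Sites were not assigned to genes or sequence, because the annotation at hand (WBcel235) is of another assembly. Alternatives were other rules for merging, other centers, other distances, and leaving out wide BLMP-1 peaks.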

Additional observations from a re-analysis of the deposited data

How the results depend on the processing

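No paired analysis was possible because each list combines both replicates, and leaving out a replicate could not be run for the same reason. No score allows a stricter peak threshold. Of 256 values under alternatives, 209 stayed within the reported 95% interval or on the same side of the threshold. Some of the 256 values could hardly change. Leaving out wide BLMP-1 peaks, for example, left the median distance to the next SIN-3 site at 15.9 kb. The figure of 209 is therefore not a measure of how robust the values are. Counts, which have no interval, were taken as unmoved within a set ratio of the reported count. Merging only at 100 bp of overlap (2157 sites), leaving out wide BLMP-1 peaks (2093 sites) and measuring between edges moved none of them. With peaks less than 500 bp apart merged, the number of sites was 1797. The share of central intervals at which a protein was alone became 61.1% for BLMP-1, 31.0% for SCC-1, 46.7% for SIN-3, 75.6% for TOP-2 and 68.3% for ZFP-1. The next interval was of the same protein at 17.9% of BLMP-1 and 14.7% of TOP-2 sites. The median distance to another protein became 6.38 kb for SCC-1, 7.45 kb for SIN-3 and 7.73 kb for ZFP-1, and the median TOP-2 distance 87.0 kb. The share of sites with the same protein within 2 kb fell for all 6 proteins, to 19.6% for TOP-2 and 17.0% for ZFP-1, and the intervals of these 2 proteins then overlapped.

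With the center as the middle 33.3% of the length, the share of sites inside was by construction lower, 41.5% for BLMP-1, 39.0% for ZFP-1, 34.0% for JMJD-2, 33.4% for SCC-1, 32.7% for SIN-3 and 30.4% for TOP-2. The share of SIN-3 sites with a further SIN-3 site within 2 kb became 6.69%. The number of autosome tests passed became 0 in Fisher's exact test. With the middle 60% the shares were 72.3%, 67.1%, 56.5%, 56.4%, 58.8% and 53.2% in the same order. Against the length of the centers, 7 tests passed in place of 1. When the next one-protein site was taken in place of any interval with the protein, the median distance rose to 24.6 kb for BLMP-1, 111 kb for JMJD-2, 57.8 kb for SCC-1, 30.6 kb for SIN-3 and 12.6 kb for ZFP-1. With limits of 1 and 5 kb, chosen after seeing the data, the TOP-2 share with a further TOP-2 site was 24.2% and 41.4%, and that of SIN-3 5.44% and 21.3%. At 1 kb the TOP-2 share was the highest of the 6 proteins. At 5 kb it was below that of ZFP-1 (43.2%), and that of BLMP-1 was 36.1%.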

Other observations

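How many more central sites would stand alone depends on pairs of proteins. Of the 598 shared intervals in centers, 432 held 2 proteins. SCC-1 with SIN-3 accounted for 118 of them and BLMP-1 with ZFP-1 for 101. SIN-3 with ZFP-1 was found at 54, JMJD-2 with SCC-1 at 41 and JMJD-2 with SIN-3 at 40. TOP-2 shared 22 such intervals with ZFP-1 and 1 with SIN-3. Without the SCC-1 list the 118 intervals of SCC-1 with SIN-3 would count as SIN-3 sites, and without the ZFP-1 list the 101 intervals of BLMP-1 with ZFP-1 would count as BLMP-1 sites.

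The nearest interval with another protein was itself a shared interval at 321 of 877 ZFP-1 sites, and at 202 of these it held ZFP-1 as well. For SCC-1 it was shared at 72 of 209 sites and held SCC-1 at 49. For TOP-2 it was shared at 23 of 128 sites and held TOP-2 at 3.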
